A study of Mus musculus with 16 samples.

Results

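Macrophages read interleukins and interferons through receptors built from pairs of chains, and the 10 genes described here encode chains of 5 such receptors: Il10ra and Il10rb (IL-10), Il4ra and Il13ra1 (IL-4 and IL-13), Il6ra and Il6st (IL-6), Ifngr1 and Ifngr2 (interferon-γ), and Ifnar1 and Ifnar2 (type I interferons). They were taken by gene symbol from a table of 35275 genes, where each symbol stood on its own row. Each of the 10 passed the filter on low counts that kept 13080 genes for testing. RNA with poly(A) tails was sequenced from macrophages cultured out of tibial marrow of C57BL/6 mice, in a study of how Smad7 shapes macrophages after myocardial infarction. The KO animals were CAGGCre-ER;Smad7fl/fl, whose tamoxifen-activated Cre is driven by the broadly active CAGG promoter and so is not restricted to macrophages; the control animals were Smad7 fl/fl littermates without Cre. Both genotypes received tamoxifen (20 mg/kg on 5 days, at 1 month of age) and gave marrow 2 weeks later. The cells grew in CSF-1 (12 ng/ml for 24 hours, then 120 ng/ml for 48 hours) with 15% serum, and then went without serum for about 12 hours. The 4 groups were KO with TGF-β1 at 10 ng/ml for 4 hours, KO untreated, fl/fl with the same TGF-β1, and fl/fl untreated, with 4 libraries each. Since only KO animals carried Cre, Cre activity and loss of Smad7 cannot be told apart. The labels do not say whether the libraries of a group came from separate animals, and their library protocol speaks of 8 cDNA libraries where 16 are listed, so the p-values measure the spread between these libraries, which may be technical.

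These receptors have no kinase of their own. Janus kinases bound to their tails phosphorylate STAT proteins when the ligand brings the chains together. IL-6 binds Il6ra and signals through Il6st (gp130), a chain also used by leukaemia inhibitory factor and oncostatin M. Il4ra pairs with the common γ chain Il2rg to bind IL-4, or with Il13ra1 to bind IL-4 or IL-13, and acts through STAT6, the route to alternative activation of macrophages. Il10ra gives the IL-10 receptor its specificity, while Il10rb is shared with other class II cytokines, and the pair acts through STAT3 to restrain inflammatory genes. Ifngr1 binds interferon-γ and Ifngr2 completes the signalling complex. Ifnar1 and Ifnar2 form the receptor for type I interferons, which signals through STAT2 among others. TGF-β1 itself acts through Smad2 and Smad3, and Smad7 is the inhibitory Smad that restrains this pathway.

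Of the 10 genes, 4 changed with TGF-β1 in fl/fl macrophages: Il6st and Ifngr1 fell, and Il4ra and Ifngr2 rose. The 250 bases upstream of the RefSeq start of these 4 genes (GRCm38.p6, each on the plus strand) are printed to show the proximal promoters of the genes that moved. The set of RefSeq promoters used here held such an entry for 8 of the 10 genes, and Il10ra and Il10rb were not matched in it. Capitals mark AGAC, the core of the Smad-binding element, on either strand (so GTCT also), and in Il4ra also ATGNAAAT, an octamer-like motif.
Il6st, chr13:112463820-112464069: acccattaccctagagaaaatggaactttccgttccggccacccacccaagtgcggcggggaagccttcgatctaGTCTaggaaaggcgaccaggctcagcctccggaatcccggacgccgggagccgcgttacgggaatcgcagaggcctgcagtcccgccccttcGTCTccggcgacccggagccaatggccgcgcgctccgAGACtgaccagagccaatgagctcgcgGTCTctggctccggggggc
Ifngr1, chr10:19591699-19591948: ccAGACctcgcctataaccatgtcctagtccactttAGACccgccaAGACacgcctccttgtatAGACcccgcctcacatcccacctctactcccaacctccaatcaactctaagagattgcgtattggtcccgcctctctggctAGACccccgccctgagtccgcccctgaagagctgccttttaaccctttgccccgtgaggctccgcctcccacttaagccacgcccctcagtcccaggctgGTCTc
Il4ra, chr7:125552021-125552270: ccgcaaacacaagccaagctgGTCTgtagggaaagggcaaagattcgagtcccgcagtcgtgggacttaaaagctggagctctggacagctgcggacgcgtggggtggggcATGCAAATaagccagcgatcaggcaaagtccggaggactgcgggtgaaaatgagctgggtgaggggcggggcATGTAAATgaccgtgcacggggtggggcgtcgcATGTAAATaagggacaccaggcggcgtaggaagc
Ifngr2, chr16:91546809-91547058: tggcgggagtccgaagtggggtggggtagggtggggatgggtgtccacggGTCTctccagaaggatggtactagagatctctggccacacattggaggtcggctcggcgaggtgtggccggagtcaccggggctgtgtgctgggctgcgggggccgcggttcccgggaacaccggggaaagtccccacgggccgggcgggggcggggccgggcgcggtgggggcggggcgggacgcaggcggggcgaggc
The RefSeq starts of Il6st and Ifngr1 coincide with the gene starts of the deposited table, and those of Il4ra and Ifngr2 lie slightly upstream of them. AGAC stood 6 times in the window of Ifngr1 and 4 times in that of Il6st, and once in each of the others. Il13ra1, which did not pass the test, held it 5 times, Ifnar1 held it 2 times, and Il6ra and Ifnar2 did not hold it. Among 32851 mouse promoters of the same length, 1.79% held 6 or more, 12.5% held 4 or more and 82.9% held at least 1. ATGNAAAT, searched on both strands, stood 3 times in the Il4ra window, at 139, 67 and 34 bases before the start, against 0.0365% of all promoters with 3 or more. AGAC and ATGNAAAT were chosen after the sequences had been seen. None of these 4 windows held GTCTAGAC (0.167% of all promoters), CAGACA (17.1%), the STAT motif TTCNNNGAA (7.02%), an interferon-response motif (2.98%), the AP-1 motif TGANTCA (6.75%) or the PU.1 core GAGGAA (23.3%). CAGACA contains AGAC, and so does GTCTAGAC, so these matches overlap. In the other matched genes GAGGAA stood in Il6ra and Ifnar1, and TTCNNNGAA in Ifnar2. These are matches of letters in a window, and no binding was measured. STAT motifs with a gap other than 3 bases were not searched.

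Libraries held 16865591 to 23741079 counts. All 10 macrophage markers, including Csf1r and Adgre1, were tested, with a summed level of 18064 to 25865 CPM (counts per 1000000 of the TMM-scaled library total). Every list for another cell type stayed at or below 148.7 CPM in each library. The summed list for T and NK cells was at 4.83 to 6.43 CPM in KO TGF-β1, 7.40 to 9.81 CPM in KO untreated, 5.00 to 7.22 CPM in fl/fl TGF-β1 and 8.86 to 10.9 CPM in fl/fl untreated libraries. Nearly all of that sum was Cd4 (mean 7.17 CPM), the only one of its 10 markers that passed the filter. The other 9 averaged at most 0.206 CPM each, and Cd3e, Cd3g and Ncr1 had no count in any library. Cd4 was lower with TGF-β1 in fl/fl macrophages (-0.75 log2, edgeR adjusted p = 0.00451), and its part in the results below was not tested. The targeted gene Smad7 was at 19.7, 14.8, 10.8 and 10.3 CPM in KO TGF-β1 libraries, 5.87, 1.28, 1.64 and 2.00 CPM in KO untreated, 37.3, 40.9, 45.6 and 58.3 CPM in fl/fl TGF-β1 and 3.89, 5.24, 6.03 and 4.80 CPM in fl/fl untreated libraries. With TGF-β1 every KO library lay below every fl/fl library, and without it every KO library but replicate 1 did. Smad7 was called lower in KO only when KO untreated replicate 1 was left out (edgeR adjusted p = 8.9e-04 with TGF-β1 and 0.0322 untreated, against 0.122 and 0.423 with that library in). With TGF-β1 the Smad7 difference itself hardly moved, at -1.70 ± 0.21 log2 without that library and -1.71 ± 0.33 with it. That library is in neither of the TGF-β1 groups, but it enters the spread estimated over all libraries. Replicate 1 of the KO untreated group stood apart: it had 319.9 CPM of Pmepa1, a TGF-β target that the KO TGF-β1 libraries held at 292 to 343 CPM and the remaining 3 KO untreated libraries at 1.70 to 2.73 CPM. For 9 of the 10 receptor genes its level lay nearer the KO TGF-β1 mean than the mean of the other 3 KO untreated libraries, Ifnar1 being the exception. Its level was within the KO TGF-β1 range for 7 of the 10, and outside it for Il10ra, Il13ra1 and Il6st. For 3 genes, Il10rb, Il6ra and Ifnar2, it was also within the range of the other KO untreated libraries. The shares of all tested genes with such positions were not computed. Its Smad7, at 5.87 CPM, lay below the KO TGF-β1 libraries at 10.3 to 19.7 CPM. The label of this library is in doubt, which the files do not settle, and why the library stood apart was not tested. It is kept where its label places it, the results on the 10 receptors that use the KO untreated group are given with and without it, and every value that includes it carries that doubt. The spread of each gene was estimated over all 16 libraries, so standard errors, intervals and p-values of the other comparisons depend on this library too. Replicate 4 of the fl/fl TGF-β1 group also differed from its group, with 14915 genes detected where the other 15 libraries had 15834 to 17195.

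Measured per gene length, as FPKM (counts divided by gene length and library total), 9 of the 10 receptor genes were among the more abundant transcripts of these cells, and Il13ra1 was not. In fl/fl untreated libraries Il6ra was at 80.3 ± 5.05 FPKM (SD, n = 4 here and in the following values), above 94.7% of the tested genes. Il10ra followed at 74.5 ± 2.81, Ifngr1 at 72.1 ± 4.01 and Ifnar1 at 71.7 ± 5.5 FPKM. These top 4 overlapped from neighbour to neighbour in that order, and all lay above Il6st at 54.5 ± 3.56 and Ifngr2 at 52.4 ± 2.37 FPKM, which overlapped each other. Il10rb at 41.8 ± 1.13 FPKM lay below them and above Ifnar2 at 37.2 ± 2.72 FPKM, and Ifnar2 overlapped Il4ra at 33.6 ± 1.91 FPKM. Il13ra1 came last, at 6.46 ± 0.642 FPKM, above 48.8% of the tested genes. With TGF-β1 the order in fl/fl libraries was Il10ra, Il6ra, Ifngr2, Ifnar1, Il4ra, Ifngr1, Il10rb, Ifnar2, Il6st and Il13ra1. There Il10ra was highest at 85.7 ± 13 FPKM, Il4ra had moved up to the fifth place at 56.0 ± 6.61 FPKM, and Il6st had moved down to the ninth at 16.8 ± 0.281 FPKM, below every library of Ifnar2. From Il6ra through to Ifnar2, each gene overlapped the next in that order. KO TGF-β1 libraries gave the same order, with Il10ra at 87.0 ± 4.52, Il4ra at 53.1 ± 3.01 and Il6st at 15.2 ± 1.65 FPKM. The 3 KO untreated libraries other than replicate 1 put Ifngr1 first at 86.7 ± 9.85 FPKM (SD, n = 3), overlapping Il10ra and Il6ra.

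**Figure D1:**
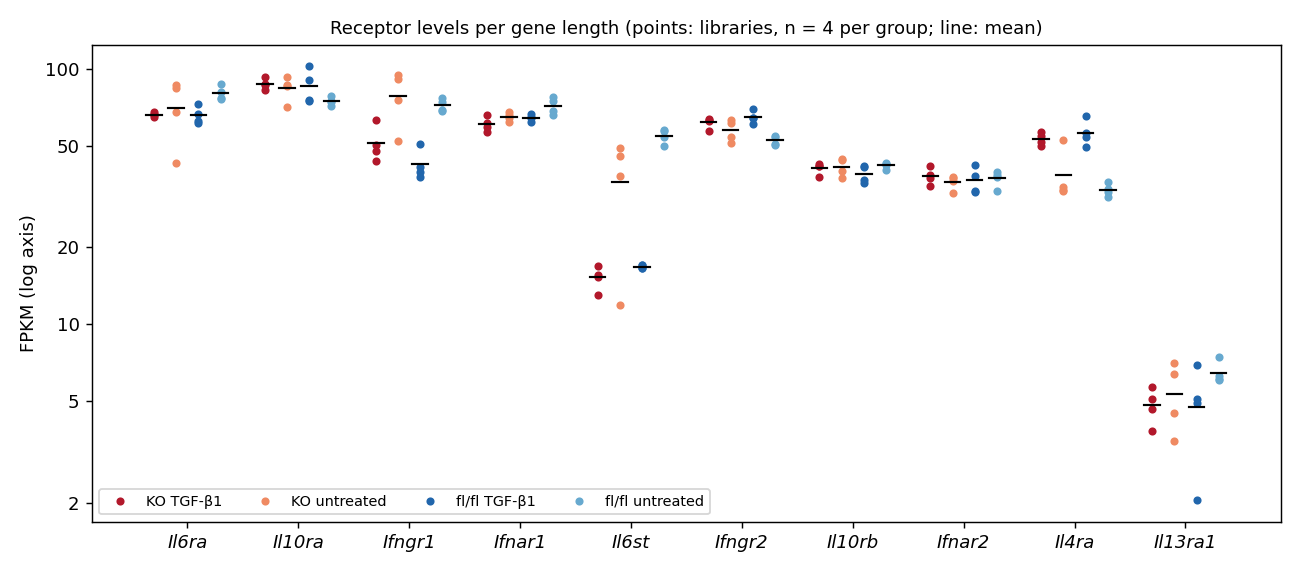
FPKM (log axis) of the 10 receptor genes, ordered by their mean in fl/fl untreated libraries, with 1 point per library, a line at each group mean and groups from left to right KO TGF-β1, KO untreated, fl/fl TGF-β1 and fl/fl untreated. Il13ra1 lies below the other 9 genes in every group, and Il6st falls to 16.8 ± 0.281 FPKM in fl/fl TGF-β1, against 54.5 ± 3.56 FPKM in fl/fl untreated libraries (SD, n = 4).

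In fl/fl macrophages, 4 of the 10 genes passed the test for TGF-β1 against untreated, 2 higher and 2 lower, where 15.5% of all tested genes were called (7.87% higher and 7.61% lower; edgeR's quasi-likelihood test, adjusted p under 0.05). The groups did not overlap for 3 genes on the higher side and 3 on the lower side, where 23.9% of all tested genes did not overlap (11.4% and 12.5%). The median log2 fold change of the 10 genes was -0.09, and that of all tested genes was -0.01. Limma on log2(FPKM + 1) called the same 4 genes, but split the calls over all genes as 843 higher and 1345 lower, against 1030 and 995 in edgeR. RNA came from whole cultures, so fewer cells of a kind and less RNA per cell cannot be told apart.

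The signalling chain of the IL-6 receptor had the largest change among the 10 genes. Il6st was at 156, 157, 147 and 146 CPM in the fl/fl TGF-β1 libraries, against 499, 499, 465 and 431 CPM in the untreated ones. All treated libraries lay in a narrow band well below every untreated one. It fell by 1.64 on the log2 scale (SE 0.29, 0.320 times the untreated level, 95% interval 0.208 to 0.493, edgeR adjusted p = 0.00149), the 218th steepest fall of all tested genes. Without KO untreated replicate 1 in the fit, Il6st had an SE of 0.12 (95% interval 0.267 to 0.382, edgeR adjusted p = 8.8e-09). Its partner Il6ra, the chain that binds IL-6, was at 236, 218, 213 and 245 CPM with TGF-β1 and 257, 272, 289.9 and 256 CPM without. The treated libraries were all below the untreated ones, by a small margin. The difference, -0.24 ± 0.16 log2, did not pass the test (edgeR adjusted p = 0.370; 95% interval -0.59 to 0.11).

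The IL-4 receptor chain moved the other way. Il4ra was at 291, 267, 291 and 335 CPM in fl/fl TGF-β1 libraries and 162, 173, 183 and 168 CPM in fl/fl untreated libraries, with no overlap. It rose by 0.79 ± 0.14 log2, or 1.73-fold (95% interval 1.41 to 2.12, edgeR adjusted p = 0.00119). Il13ra1, the second chain of the receptor for IL-13, was far lower and more scattered, at 27.1, 19.4, 19.3 and 7.71 CPM with TGF-β1 and 27.8, 23.4, 22.6 and 22.4 CPM without. The lowest value belonged to replicate 4, the library with fewer detected genes, and the groups overlapped. The difference of -0.39 ± 0.29 log2 did not pass the test (edgeR adjusted p = 0.421), and it was -0.13 ± 0.22 log2 without that library. Il2rg, the common γ chain that completes the other IL-4 receptor, was at 15.0, 17.4, 11.9 and 17.8 CPM with TGF-β1 and 24.0, 25.2, 12.9 and 19.6 CPM without, and at -0.39 ± 0.22 log2 was not called either (edgeR adjusted p = 0.272).

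The chains of the interferon-γ receptor moved in opposite directions. Ifngr1, which binds the ligand, was at 84.2, 88.3, 88.8 and 108 CPM in fl/fl TGF-β1 libraries, against 164, 156, 144 and 146 CPM in fl/fl untreated libraries. Every treated library lay below every untreated one. It fell by 0.72 on the log2 scale (SE 0.15, 0.606 times the untreated level, edgeR adjusted p = 0.00365). Ifngr2, the accessory chain, was at 208, 221, 212 and 228 CPM with TGF-β1 and 179, 177, 162 and 164 CPM without. Here every treated library lay above every untreated one. The rise was small, 0.35 ± 0.09 log2 or 1.27-fold (95% interval 1.11 to 1.46, edgeR adjusted p = 0.0129).

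The IL-10 receptor and the type I interferon receptor held 4 genes with no call. Il10ra was at 279, 279, 323 and 361 CPM with TGF-β1 and 261, 274, 259 and 249 CPM without; the treated libraries were all higher, by a narrow margin. At 0.25 ± 0.11 log2 it did not pass the threshold over all genes (edgeR adjusted p = 0.129), and without replicate 4, its highest library, the difference was 0.17 ± 0.10 log2. On the opposite strand Il10ra overlaps the short gene Gm20612, which had 24 to 63 counts per library, and whether counting used strand is not given in the sources used here. Il10rb was at 108, 106, 118 and 116 CPM with TGF-β1 and 118, 112, 117 and 119 CPM without, with overlapping groups. Its log2 fold change of -0.06 ± 0.09 has a 95% interval of -0.25 to 0.13. Ifnar1 was at 264, 256, 257 and 262 CPM with TGF-β1 and 307, 293, 257 and 266 CPM without, overlapping by 1 untreated library, at -0.11 ± 0.10 log2 (95% interval -0.32 to 0.10). Ifnar2 was at 107, 107, 118 and 129.7 CPM with TGF-β1 and 102, 117, 119.7 and 115 CPM without, at 0.02 ± 0.09 log2 (95% interval -0.18 to 0.23). Across Il10rb, Ifnar1 and Ifnar2 these intervals span -0.32 to 0.23 log2.

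**Figure D2:**
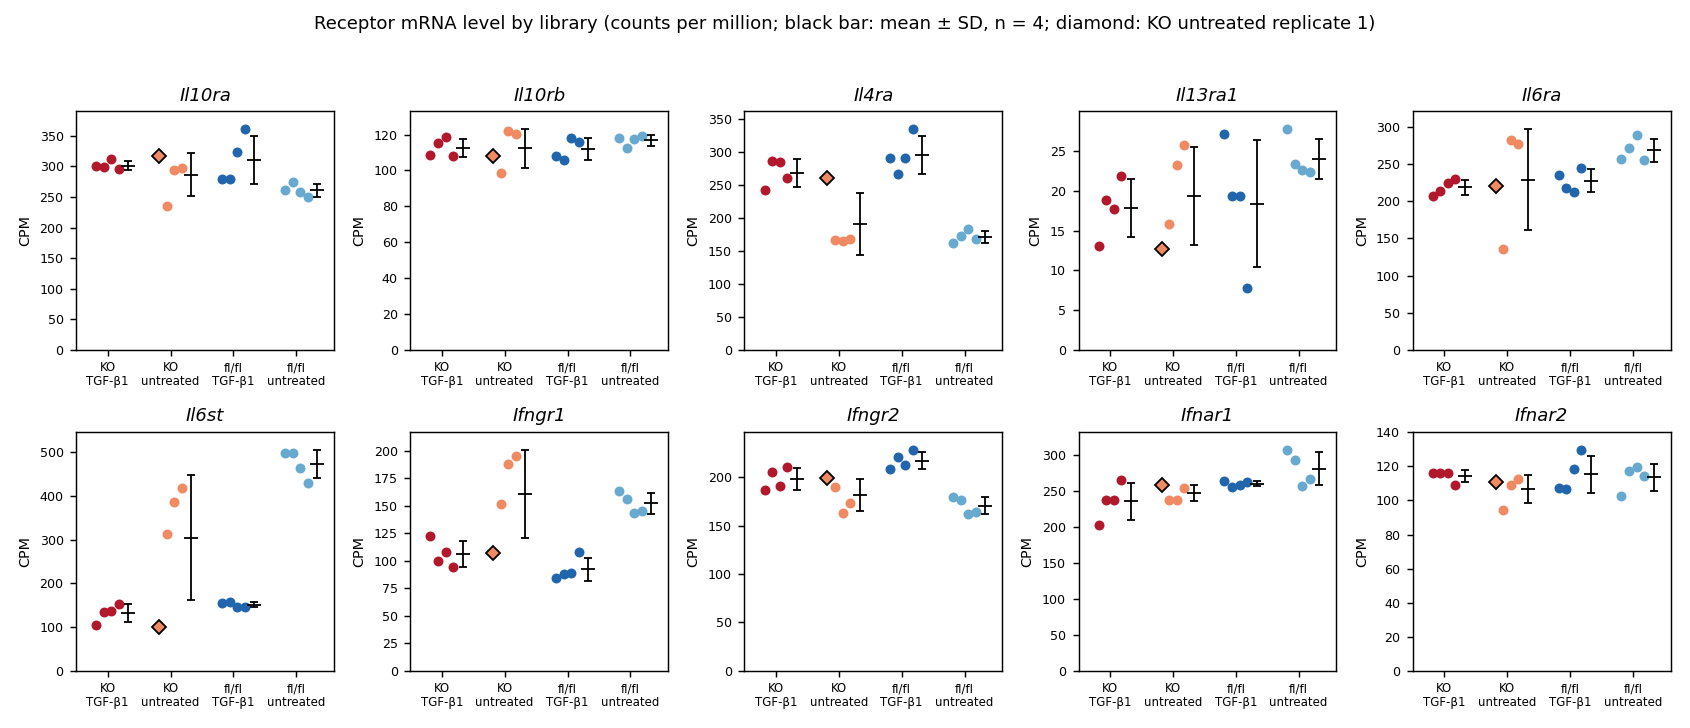
CPM of each receptor gene in every library, with 1 panel per gene, groups from left to right KO TGF-β1, KO untreated, fl/fl TGF-β1 and fl/fl untreated, black bars for the mean ± SD of a group (n = 4) and a black-edged diamond for KO untreated replicate 1. For Il6st that diamond lies at 100.5 CPM, just below the KO TGF-β1 libraries, while the other KO untreated libraries lie at 314 to 419 CPM.

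In KO macrophages Il6st, Il4ra and Ifngr1 again had the largest responses, and their size depended on KO untreated replicate 1. Il6st was at 104, 135, 137 and 152 CPM in KO TGF-β1 libraries, against 100.5, 314, 386 and 419 CPM in KO untreated libraries. Replicate 1, the first untreated value, was below every treated library and the other 3 untreated ones were above all of them. Il4ra was at 243, 286, 284 and 261 CPM with TGF-β1 and 261, 166, 166 and 168 CPM without. The untreated replicates 2 to 4 agreed within 3 CPM, and replicate 1 fell inside the treated range. Ifngr1 was at 122, 99.4, 108 and 94.7 CPM with TGF-β1 and 108, 152, 188 and 195 CPM without, and replicate 1 was again inside the treated range. Over all 16 libraries Il6st fell by 1.21 (SE 0.28, edgeR adjusted p = 0.0255), Ifngr1 fell by 0.60 (SE 0.15, edgeR adjusted p = 0.0325) and Il4ra rose by 0.50 ± 0.13 (edgeR adjusted p = 0.0421) on the log2 scale. These are 3 of 10 genes called (1 higher, 2 lower), where 5.17% of all tested genes were called (2.19% higher and 2.97% lower). None of the 10 genes separated the groups fully, against 6.04% of all genes (2.98% higher and 3.06% lower). Limma on log2(FPKM + 1) called 463 genes higher and 344 lower over the whole table, against 287 and 389 in edgeR. Of the 3 genes it called Il4ra and Ifngr1 but not Il6st, whose adjusted p in limma was 0.0506. Without replicate 1 the same 3 genes were called, where the share of all genes was 15.2% (8.33% higher and 6.88% lower), and each of the 3 separated the groups, as did 24.2% of all genes (11.5% higher and 12.6% lower). The values were then -1.48 ± 0.12 for Il6st (edgeR adjusted p = 8.3e-08), -0.72 ± 0.12 for Ifngr1 (edgeR adjusted p = 2.9e-04) and 0.71 ± 0.10 for Il4ra (edgeR adjusted p = 3.2e-05). With all libraries in, the count of 3 changed with single libraries. It fell to 1 without KO TGF-β1 replicate 1, to 0 without any other single KO TGF-β1 library or any of KO untreated replicates 2 to 4, and to 1 without fl/fl untreated replicate 2, 3 or 4. It was 2, with Il4ra not called, when any of replicates 1 to 3 of fl/fl TGF-β1 or the first fl/fl untreated library was left out. Over the 16 libraries left out singly, the call held 9 times for Il6st, 7 times for Ifngr1 and 2 times for Il4ra.

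The other 7 receptor genes were not called in KO macrophages, with or without replicate 1. Ifngr2, called in fl/fl, was at 187, 206, 191 and 211 CPM with TGF-β1 and 199.6, 190.1, 163 and 173 CPM without, overlapping through untreated replicates 1 and 2. Its difference was 0.13 ± 0.09 log2 (edgeR adjusted p = 0.540), and 0.21 ± 0.09 log2 without replicate 1 (edgeR adjusted p = 0.149). Il6ra was at 207, 214, 224 and 229.7 CPM with TGF-β1 and 220.3, 136, 283 and 277 CPM without. The low untreated value is that of replicate 2, and the 2 higher ones lay above all treated libraries. Il10ra was at 299.9, 298, 311 and 296 CPM with TGF-β1 and 317, 236, 294 and 298 CPM without, Il10rb at 109, 115, 118 and 108 CPM with and 108, 98.8, 122 and 120.1 CPM without, each overlapping. Il13ra1 was at 13.1, 18.8, 17.7 and 21.8 CPM with and 12.7, 15.8, 23.2 and 25.8 CPM without TGF-β1. Here replicate 1 had the lowest of the 8 KO values. Ifnar1 was at 203, 237, 237 and 265 CPM with and 258, 237, 237 and 254 CPM without TGF-β1, and Ifnar2 at 116, 116, 116 and 109 CPM with and 111, 94.6, 109 and 113 CPM without. Without replicate 1 the log2 differences of these 7 genes ran from -0.25 for Il13ra1 to 0.21 for Ifngr2.

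**Figure D3:**
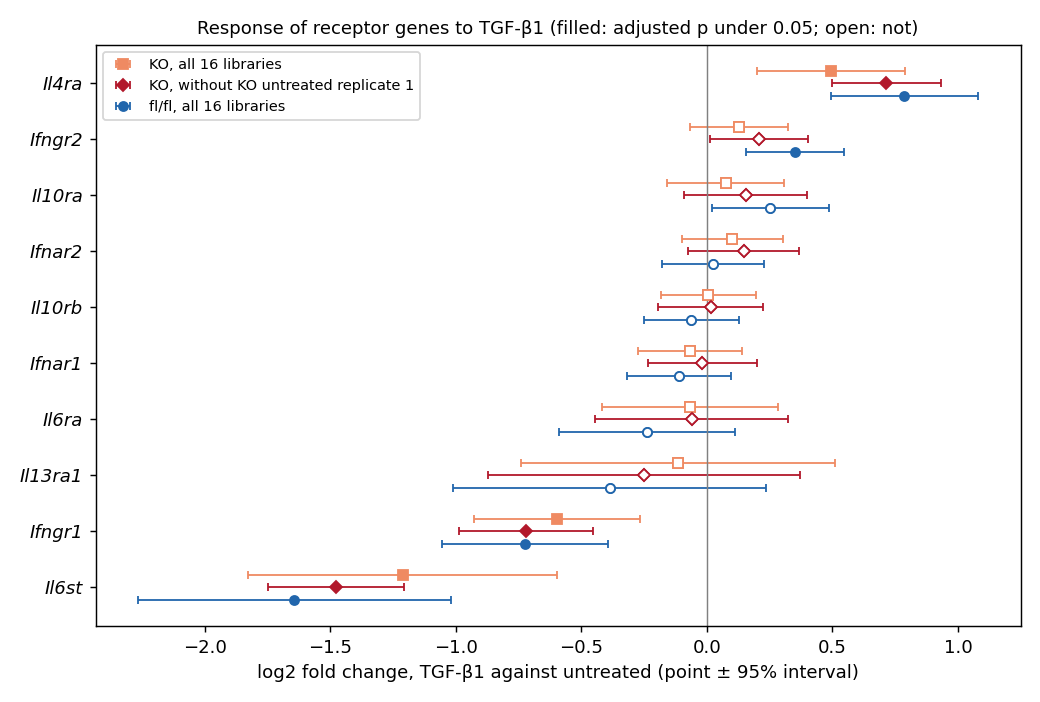
Log2 fold change of each receptor gene with TGF-β1 against untreated, with its 95% interval, for KO over all 16 libraries (squares), KO without KO untreated replicate 1 (diamonds) and fl/fl over all 16 libraries (circles); filled points passed an adjusted p of 0.05 and open points did not. Il6st and Ifngr1 lie below 0 and Il4ra above it in all 3 estimates, and Ifngr2 is filled in fl/fl alone, at 0.35 log2.

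Whether the response itself differed between genotypes was tested as an interaction, and 0 of the 10 genes passed, as did 0 of all tested genes (edgeR; the lowest adjusted p among the 10 was 0.993, and an unadjusted p under 0.05 was found for 0 of the 10 and for 275 of all genes). DESeq2 and limma also called 0 of the 10, and over all genes DESeq2 called 1. The KO response minus the fl/fl response was 0.43 ± 0.39 log2 for Il6st and -0.22 ± 0.13 log2 for Ifngr2. Without KO untreated replicate 1 these were 0.17 ± 0.17 and -0.14 ± 0.12. The 95% intervals were then -0.20 to 0.54 for Il6st, -0.36 to 0.37 for Ifngr1, -0.36 to 0.22 for Il4ra and -0.40 to 0.12 for Ifngr2. A call for Ifngr2 in fl/fl and none in KO is therefore no measured difference between genotypes.

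Between genotypes no receptor gene was called in either treatment, by edgeR with or without KO untreated replicate 1 or by DESeq2 or limma over all libraries, where edgeR called 0.0459% of all tested genes without TGF-β1 and 0.0382% with it (0.0994% and 0.0612% without that library). Without TGF-β1, 1 of the 10 genes had an unadjusted p under 0.05 in edgeR, where 1421 of the 13080 tested genes did. There were 2 in DESeq2 (1688 over all genes) and 2 in edgeR without replicate 1 (1566 of all tested genes). With TGF-β1 there was none in edgeR (734 of all tested genes) or DESeq2 (967 over all genes). The 1 gene in edgeR over all libraries was Il6st. Its untreated KO libraries, at 100.5 to 419 CPM, all lay below the fl/fl untreated range of 431 to 499 CPM. Such a separation on the lower side was found for 4.11% of all tested genes. The difference was -0.63 ± 0.28 log2 (edgeR adjusted p = 0.441), and -0.36 ± 0.12 log2 without replicate 1 (edgeR adjusted p = 0.352), where 7.05% of all genes separated on that side. Without replicate 1, Ifnar1 too lay lower in KO untreated libraries, at 237 to 254 CPM against 257 to 307 CPM in fl/fl untreated libraries, a difference of -0.23 ± 0.10 log2 (edgeR adjusted p = 0.391). With TGF-β1 the log2 differences ran from -0.20 for Il6st to 0.20 for Ifngr1. Their 95% intervals reached down to 0.570 times the fl/fl level, for Il6st, and up to 1.5 times, for Il13ra1.

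The balance between partner chains was read within each library as a ratio of FPKM. Ifngr1 to Ifngr2 was 0.623, 0.616, 0.645 and 0.729 in fl/fl TGF-β1 libraries, against 1.40, 1.37, 1.36 and 1.37 in fl/fl untreated libraries. Per gene length, the ligand-binding chain was thus the more abundant transcript in every untreated fl/fl library and the less abundant in every treated one. That crossing of 1 depends on the annotated lengths, 2112 bases for Ifngr1 and 3254 for Ifngr2. In CPM, which is not divided by length, Ifngr1 was below Ifngr2 in every fl/fl library, with untreated means of 152 and 171 CPM. In KO libraries the ratio was 1.01, 0.744, 0.876 and 0.692 with TGF-β1 and 0.830, 1.23, 1.77 and 1.74 without. Replicate 1 held the single untreated value below 1. Il6ra to Il6st averaged 3.91 ± 0.332 in fl/fl TGF-β1 and 1.48 ± 0.126 in fl/fl untreated libraries (SD, n = 4 each); its denominator fell and Il6ra did not pass the test. KO libraries averaged 4.38 ± 0.554 with TGF-β1 and 2.61 ± 2.08 without, or 1.58 ± 0.406 over the 3 untreated libraries other than replicate 1. Il4ra to Il2rg, the chains of the IL-4 receptor, averaged 6.39 ± 1.23 with TGF-β1 and 2.98 ± 1.15 without in fl/fl libraries. Every treated fl/fl library was above every untreated one. KO libraries averaged 5.56 ± 0.853 with TGF-β1 and 3.12 ± 1.82 without, or 2.21 ± 0.175 without replicate 1. Il4ra to Il13ra1 was 7.81, 10.0, 11 and 31.7 in fl/fl TGF-β1 and 4.26, 5.39, 5.91 and 5.47 in fl/fl untreated libraries, and its highest value came from replicate 4, where Il13ra1 was lowest. Il10ra to Il10rb averaged 2.21 ± 0.193 with TGF-β1 and 1.78 ± 0.116 without in fl/fl libraries, and Ifnar1 to Ifnar2 1.76 ± 0.159 with and 1.94 ± 0.285 without. Of these 2 ratios the first separated the groups and the second did not. The ratios follow from levels already tested and carry no test of their own.

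**Figure D4:**
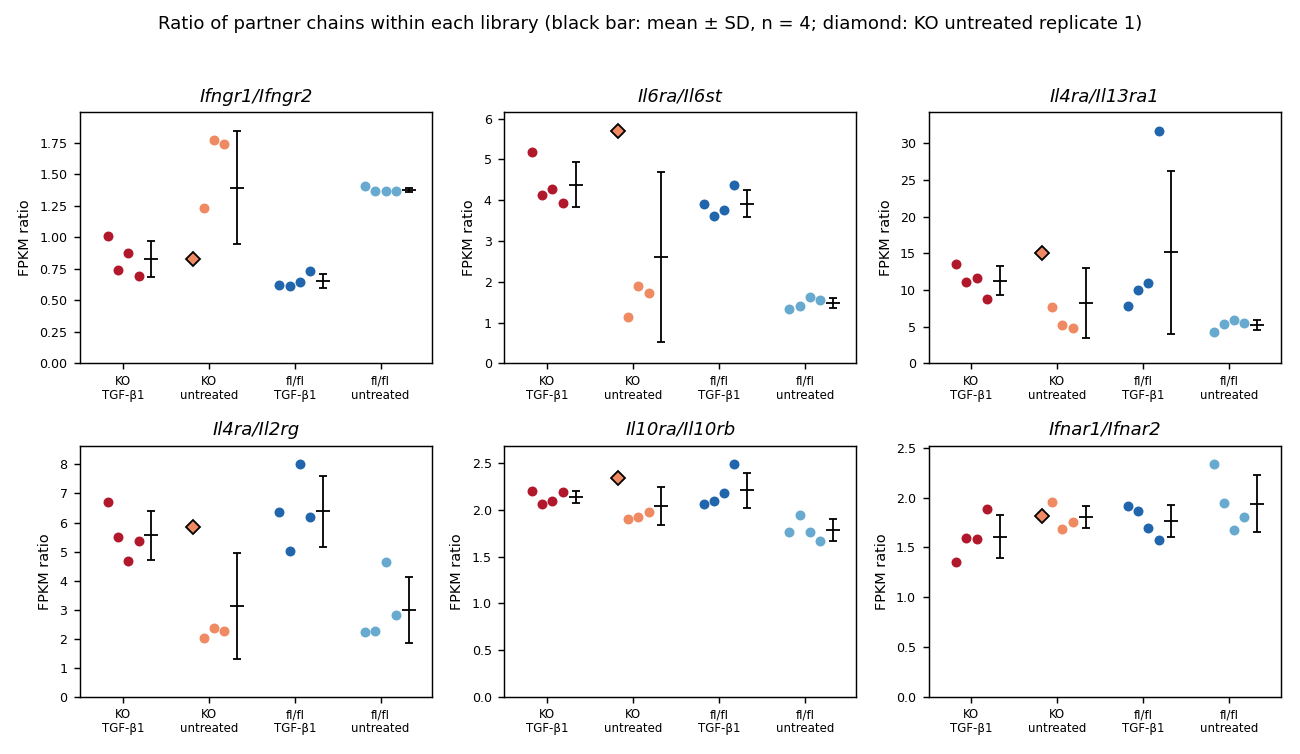
Ratio of FPKM of partner chains within each library, with 1 panel per pair, groups from left to right KO TGF-β1, KO untreated, fl/fl TGF-β1 and fl/fl untreated, black bars for the mean ± SD (n = 4) and a black-edged diamond for KO untreated replicate 1. Ifngr1 to Ifngr2 averages 0.653 ± 0.0519 in fl/fl TGF-β1 and 1.38 ± 0.0197 in fl/fl untreated libraries, on either side of 1.

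Of the 10 genes, 4 lie in 1 cluster on chromosome 16 and on the plus strand (mm10): Ifnar2 (ENSMUSG00000022971) at 91372783 to 91405589, Il10rb (ENSMUSG00000022969) at 91406164 to 91425834, Ifnar1 (ENSMUSG00000022967) at 91485238 to 91507441 and Ifngr2 (ENSMUSG00000022965) at 91547072 to 91565169. The cluster spans 192387 bases, with 574 bases between Ifnar2 and Il10rb, 59403 between Il10rb and Ifnar1 and 39630 between Ifnar1 and Ifngr2. In fl/fl macrophages Ifngr2 was called and the other 3 were not. The cluster also holds 4 other annotated genes: Gm21970, which overlaps Ifnar2 and Il10rb on their strand and had no counts, the pseudogenes Gm7860 and Gm7856 at mean levels of 0.104 and 0.00700 CPM, and the processed transcript A930006K02Rik at 0.783 CPM, which was not called in fl/fl macrophages (edgeR adjusted p = 0.494). How reads in stretches shared with Gm21970 were assigned is not given in the sources used here. The counts, FPKM and ratios of Ifnar2 and Il10rb carry that limit. The remaining genes stand alone: Il10ra on chromosome 9 (45253837 to 45269149, minus strand, ENSMUSG00000032089), Il4ra on 7 (125552282 to 125579472, plus strand, ENSMUSG00000030748), Il13ra1 on X (36112110 to 36171259, plus strand, ENSMUSG00000017057), Il6ra on 3 (89869324 to 89913162, minus strand, ENSMUSG00000027947), Il6st on 13 (112464070 to 112510086, plus strand, ENSMUSG00000021756) and Ifngr1 on 10 (19591949 to 19610229, plus strand, ENSMUSG00000020009).

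As a description, the log2 CPM of the called genes was correlated with that of 10698 tested genes over the 15 libraries without KO untreated replicate 1. The points share the TGF-β1 contrast, the replicates and the scaling, and no p is given. Closest to Il6st were Plekho2 (Pearson r = 0.994), Epb4.1l1 (0.990) and Mapk14 (0.989), the last encoding the p38α kinase. Closest to Ifngr1 were Irf1 (0.981), a transcription factor induced by interferon-γ, N4bp2l1 (0.964) and Txnip (0.963). Il4ra was closest to Nfic (0.986), Jade2 (0.984) and 6330403L08Rik (0.984). For Ifngr2 the nearest were Ccdc86 (0.937), Micall1 (0.928) and Stk10 (0.921).

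The genes on either side of these receptors were described with lists, whose counts in fl/fl macrophages read against the 7.87% of all tested genes called higher and 7.61% called lower. Their counts in KO macrophages read against 2.19% called higher and 2.97% called lower with all libraries, and 8.33% and 6.88% without KO untreated replicate 1. Counts of unadjusted p under 0.05 in KO macrophages, given with all libraries in, read against 2311 of the 13080 tested genes in edgeR. Of 24 ligands of these and related receptors, 6 passed the filter on low counts, with a median of -0.37 log2, and in fl/fl macrophages 1 rose and 1 fell. Osm, the gp130 ligand oncostatin M, was at 12.2 ± 4.98 CPM in fl/fl TGF-β1 and 3.78 ± 1.05 CPM in fl/fl untreated libraries (SD, n = 4 each), a rise of 1.68 ± 0.45 log2 (edgeR adjusted p = 0.0184). That call was lost without fl/fl TGF-β1 replicate 4, fl/fl untreated replicate 1 or fl/fl untreated replicate 3. Il10, the ligand of Il10ra, was scarce. It was at 0.243, 0.157, 0.0962 and 0 CPM in fl/fl TGF-β1 and 2.69, 2.1, 2.34 and 2.06 CPM in fl/fl untreated libraries, a fall that was called (edgeR adjusted p = 0.00281). In KO libraries Il10 was at 0.161, 0.0981, 0.276 and 0.224 CPM with TGF-β1 and 0, 1.75, 1.46 and 2.05 CPM without. There it was called lower without replicate 1 (edgeR adjusted p = 1.9e-04) but not with it (edgeR adjusted p = 0.0512).

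Of 34 other class I and II receptor chains, 17 passed the filter, with a median of 0.10 log2, and 5 rose and 3 fell in fl/fl macrophages. Il21r, the IL-21 receptor, rose by 1.04 ± 0.20 log2, and the signalling chains Csf2rb2 (IL-3) and Csf2rb (GM-CSF, IL-3 and IL-5) rose by 0.63 ± 0.14 and 0.51 ± 0.12 log2. The last 2 genes are near-identical neighbours, so reads may be split between them. Csf3r and Il11ra1, the receptors for G-CSF and IL-11, rose by 0.49 ± 0.15 and 0.47 ± 0.14 log2. Lifr, the partner of Il6st in the receptor for leukaemia inhibitory factor, was at 14.5 ± 0.969 CPM with TGF-β1 and 37.1 ± 3.54 CPM without, a change of -1.35 ± 0.20 log2 (edgeR adjusted p = 7.2e-04). Il15ra, which presents IL-15, changed by -1.47 ± 0.26 log2 and Il12rb2, an IL-12 receptor chain, by -1.03 ± 0.26 log2. The count of 5 that rose was 3 without fl/fl TGF-β1 replicate 4 and without fl/fl untreated replicate 1, 2 or 4. In KO macrophages 1 rose and 2 fell, and 3 rose and 2 fell without KO untreated replicate 1. With it in, the 1 that rose was lost without any single one of the other 7 KO libraries, and the 2 that fell were 1 without KO TGF-β1 replicate 1 or 2 or KO untreated replicate 2, and 0 without KO TGF-β1 replicate 3 or 4 or KO untreated replicate 3 or 4.

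Inside the cell, 3 of the 12 Janus kinases and STATs fell in fl/fl macrophages and none rose, with a median of -0.11 log2. Stat2, which carries the type I interferon signal, changed by -0.78 ± 0.25, Stat5a by -0.56 ± 0.12 and Stat5b by -0.31 ± 0.09 log2. The count of 3 was 1 without fl/fl TGF-β1 replicate 2 or 3 or fl/fl untreated replicate 1. In KO macrophages 3 fell without KO untreated replicate 1, and 0 with it (edgeR; 4 had an unadjusted p under 0.05, and DESeq2 called 1). Of 18 inhibitors of receptor signalling, 17 passed the filter, with a median of 0.06 log2, and 4 rose and 1 fell in fl/fl macrophages. The suppressors of cytokine signalling Socs6 and Socs2 rose by 0.74 ± 0.22 and 2.46 ± 0.78 log2, the phosphatase Ptpn1 by 0.45 ± 0.12 and the STAT inhibitor Pias4 by 0.37 ± 0.11 log2. Ptprc, the phosphatase CD45, changed by -0.74 ± 0.23 log2. The 4 that rose were 2 without KO TGF-β1 replicate 2 or fl/fl TGF-β1 replicate 2, and 1 without fl/fl TGF-β1 replicate 3 or any single fl/fl untreated library. The 1 that fell was 3 without KO untreated replicate 1, 2 without KO untreated replicate 2, fl/fl TGF-β1 replicate 1 or fl/fl untreated replicate 3, and 0 without fl/fl TGF-β1 replicate 4 or fl/fl untreated replicate 1 or 2. In KO macrophages 4 rose and 3 fell without KO untreated replicate 1. Among those that fell were Socs1, also a suppressor of cytokine signalling, at -2.25 ± 0.49 log2 (average log2 CPM 1.28), and Usp18, a brake on Ifnar2 signalling, at -1.63 ± 0.26 log2. With replicate 1 in, 0 were called (edgeR, where 7 had an unadjusted p under 0.05, while DESeq2 called 2 higher and 2 lower).

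Of 8 genes for shedding and trafficking of receptors, 2 rose in fl/fl macrophages, with a median of 0.03 log2. They were Adam10, a protease that can shed Il6ra, at 0.68 ± 0.21 log2, and Rhbdf2, the iRhom2 partner of the protease Adam17, at 0.57 ± 0.12 log2. The count was 1 without fl/fl TGF-β1 replicate 1, 2 or 3 or any single fl/fl untreated library. In KO macrophages 2 rose without KO untreated replicate 1, and 0 were called with it (edgeR; 2 had an unadjusted p under 0.05, and DESeq2 called 1). In KO macrophages with replicate 1 in, leaving out fl/fl TGF-β1 replicate 4 gave 1 call in each of the lists of ligands, Janus kinases and STATs, inhibitors, and shedding and trafficking.

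Among target genes of these receptors, more fell than rose in each list in fl/fl macrophages. Of 24 type I interferon targets, 9 fell and none rose in fl/fl macrophages, with a median log2 fold change of -1.0. Mx1, an antiviral GTPase, was at 23.0 ± 8.19 CPM with TGF-β1 and 114 ± 40.5 CPM without (SD, n = 4 each), a change of -2.31 ± 0.53 log2 (edgeR adjusted p = 0.00878), and Rsad2, which encodes viperin, changed by -2.24 ± 0.56 log2. The count of 9 became 19 without KO untreated replicate 1, 5 without fl/fl TGF-β1 replicate 3, 3 without fl/fl TGF-β1 replicate 4 and 4 without fl/fl untreated replicate 1. In KO macrophages 4 fell, and 19 without replicate 1, and with replicate 1 in there were 0 without any single one of the other 7 KO libraries. Of 21 interferon-γ targets, 8 fell and 1 rose in fl/fl macrophages, with a median of -0.88 log2, and 4 fell without fl/fl TGF-β1 replicate 4. Gbp7, a guanylate-binding protein, changed by -2.59 ± 0.44 and Gbp5 by -2.23 ± 0.56 log2, and Irf8, which rose by 0.65 ± 0.12 log2, is also a lineage factor of macrophages. In KO macrophages 6 fell and 1 rose, and 14 fell and 1 rose without replicate 1. With replicate 1 in, the 6 were 0 or 1 without any single one of the other 7 KO libraries and 3 without fl/fl untreated replicate 2 or 3.

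Of 15 STAT3 targets of IL-10 and IL-6, 13 passed the filter, with a median of -0.58 log2, and 3 fell and 1 rose in fl/fl macrophages. Hmox1, haem oxygenase, changed by -0.82 ± 0.20, the repressor Etv3 by -0.79 ± 0.18 and the NF-κB regulator Bcl3 by -0.66 ± 0.13 log2, while Sbno2, a co-repressor induced by IL-10, rose by 0.76 ± 0.14 log2. In KO macrophages 2 fell and 1 rose, and 5 fell and 1 rose without KO untreated replicate 1. With it in, the 2 were 0 or 1 without any single one of the other 7 KO libraries and 1 without fl/fl untreated replicate 3. Of 15 STAT6 targets of IL-4 and IL-13, 8 passed the filter, with a median of -0.82 log2, and 3 fell and none rose in fl/fl macrophages, while Il4ra rose. The transcription factors Irf4 and Egr2 changed by -2.63 ± 0.64 and -1.55 ± 0.35 log2, and Mrc1, the mannose receptor, by -0.54 ± 0.13 log2. In KO macrophages 1 fell, and 3 without replicate 1, with Clec10a, a lectin, at -1.55 ± 0.31 log2 without that library and -1.32 ± 0.36 with it. With replicate 1 in, that 1 was 2 without fl/fl TGF-β1 replicate 4 and 0 without fl/fl TGF-β1 replicate 3, any single fl/fl untreated library or any single one of the other 7 KO libraries. The genes that rose in KO macrophages, 1 each of the interferon-γ and STAT3 lists, were likewise lost without any single one of those 7 libraries and without several single fl/fl libraries.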

How the data were processed

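The deposited table gave, per gene and library, counts and FPKM that the authors made with TopHat2 2.0.9, HTSeq 0.6.1 and Cufflinks 2.1.1 on mm10 (GRCm38.p6), per the submitters' processing notes; reads were 150 bp, paired, per the labels. The counts were not normalized; the deposited FPKM equalled count over length and library total within 0.1% for 100% of 266414 positive values. Whether alignment or counting used strand is not given in these sources. Here the counts of 16 libraries were filtered (filterByExpr), scaled (TMM) and fitted with edgeR 4.0.16 (quasi-likelihood, robust; R 4.3.3), with Benjamini-Hochberg adjustment over all tested genes at 0.05. The contrasts were TGF-β1 against untreated within a genotype, KO against fl/fl within a treatment, and the interaction of both. The 95% intervals use the residual degrees of freedom, and ± after a log2 value is its standard error. That standard error is the size of the log2 fold change over the square root of edgeR's F statistic. The p-values use edgeR's moderated degrees of freedom, so an interval and a p-value need not match exactly. Libraries had a mean of 19870898 counts, and no 2 libraries were identical. Alternatives were RLE scaling, DESeq2 1.42.0, limma 3.58.1 on FPKM, no filter, a replicate block (1 for both genotypes, and 1 within each genotype), the compared groups alone and each library left out. The 4 same-numbered pairs of fl/fl libraries deviated together from their group means (correlations 0.123 to 0.181). Differently numbered pairs of a treated and an untreated fl/fl library ran from -0.216 to 0.200. Untreated replicate 1 correlated more with TGF-β1 replicate 2 (0.200) than with TGF-β1 replicate 1 (0.162). Neither the labels nor these values settle whether the numbers pair libraries. The block changed none of the 4 calls in fl/fl macrophages. The edgeR, DESeq2 and limma fits were also run on simulated counts with a fixed spread and no deviating library. There limma was given log2(CPM + 1), so limma on FPKM and the effect of a deviating library were not tested in that way. The members and lists were chosen with earlier results of these data known. From each list and TGF-β1 comparison, up to 2 called genes with the highest and 2 with the lowest fold change, among those whose average log2 CPM reached 1, could be named, or 1 with the lowest p where none was called; Il10, Irf4 and Socs2, which were below that level, and others that complete a count of 5 or fewer were named after their values were seen. Promoter sequences are from RefSeq.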

Additional observations from a re-analysis of the deposited data

Results flagged for a closer look

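In 2 of 40 groups of 4 libraries (10 genes in each of 4 groups), 1 library lay far from the other 3 relative to the range of the group, where chance gives about 1 in 20. Il4ra was at 261 CPM in KO untreated replicate 1, against 166, 166 and 168 CPM in the other KO untreated libraries. Its value lay within the KO TGF-β1 range of 243 to 286 CPM. Ifnar2 was at 109 CPM in KO TGF-β1 replicate 4, against 116, 116 and 116 CPM in the other KO TGF-β1 libraries, whose values lay close together.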

How the results depend on the processing

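The 4 calls in fl/fl macrophages were made under each alternative. This covers another scaling (RLE), DESeq2, no filter, limma on log2(FPKM + 1) and log2(FPKM + 0.1), the 2 groups alone, the replicate block and each library left out, where Ifngr2 reached an adjusted p of 0.0476. The 3 calls in KO macrophages were 0 with the 2 groups alone, where the spread is estimated from fewer libraries, and 0 to 3 with each library left out. They were 2 with no filter and in limma with either pseudocount, where Il6st was not called (adjusted p = 0.0609, 0.0506 and 0.0517). Same-numbered KO libraries correlated at 0.0754 to 0.239, with 2 of 4 pairs over 0.1, so their numbers are not taken to pair them; across genotypes none of 16 same-numbered pairs was over 0.1. With 1 replicate block for both genotypes, 1 gene was called in KO: Il6st was, and Il4ra (adjusted p = 0.0613) and Ifngr1 (0.0544) were not. With the replicate block within each genotype, added after seeing the data, 2 were called in KO, and Ifngr1 was not (0.0626). Neither block changed another call in fl/fl or KO. Over all genes, TGF-β1 in KO gave 676 calls, against 1075 in DESeq2, 446 with no filter, 0 with the 2 groups alone and 93 to 1989 with each library left out; KO against fl/fl gave 54 in DESeq2 without TGF-β1 (6 in edgeR) and 20 with it (5 in edgeR). Signs turned only for differences that were not called. With limma (pseudocounts 1 and 0.1) these were Ifnar2 in fl/fl (-0.0296 and -0.0304 log2), Il10rb with TGF-β1 in KO (-0.0165 and -0.0168), and, for KO against fl/fl with TGF-β1, Il10ra (0.0317 and 0.0321), Il13ra1 (0.0910 and 0.131), Il6ra (0.00925 and 0.00942) and Ifnar2 (0.0573 and 0.0588). Libraries were also left out singly, and KO untreated replicate 1 together with fl/fl TGF-β1 replicate 4, a choice made after seeing the data. Ranges that then crossed 0 were -0.0364 to 0.0603 for Ifnar2 in fl/fl. In KO they were -0.0392 to 0.0655 for Il10rb, -0.273 to 0.0715 for Il13ra1, -0.237 to 0.0664 for Il6ra and -0.128 to 0.0112 for Ifnar1. For untreated KO against fl/fl they were -0.0596 to 0.211 for Il4ra and -0.0464 to 0.228 for Ifngr1. With TGF-β1 they were -0.0914 to 0.0376 for Il10ra, -0.0169 to 0.0352 for Il10rb, -0.292 to 0.209 for Il13ra1 and -0.0481 to 0.0485 for Ifnar2. For the difference in response they were -0.0171 to 0.126 for Ifnar1 and -0.141 to 0.518 for Il13ra1. The cause of these changes was not tested. Il13ra1, the lowest of the 10 genes at 7.71 to 27.8 CPM, had large standard errors.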
